A study of Mus musculus with 12 samples.

Results

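Amino acid transporters of the hepatocyte surface were followed as 49 genes among the 16116 gene symbols measured in sorted mouse hepatocytes with activated YAP. The members were all genes whose symbols place them in the solute carrier families Slc1, Slc3, Slc6, Slc7, Slc36, Slc38 and Slc43, with Slc1a2 left out. Of these, 27 reached a log2 CPM of at least 1 in at least 2 of the 12 libraries and were tested. CPM is a library-scaled read count, and every level below is the deposited log2 CPM of a library. The other 22 members lay between -2.58 and 1.20 in all 12 libraries, and none of them averaged more than 0.08. The family names do not fully match the description as surface amino acid carriers. Slc6a2 and Slc6a4 carry monoamine neurotransmitters, Slc6a8 carries creatine, Slc43a3 carries purine nucleobases, and Slc38a7, Slc38a9 and Slc36a1 are known from lysosomes.

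The libraries came from 2 experiments of 6 libraries each, with 2 libraries per group, and all mice were injected at 3 weeks of age. In the YAP experiment, Sox9 fl/fl or Sox9 fl/+ mice received AAV2/8-TBG-Cre together with AAV2/8-TBG-YAP S127A-P2A-GFP, which encodes a form of YAP that the Hippo kinases cannot switch off at that residue. They are called Sox9-null YAP and Sox9-heterozygous YAP here. Their control was wild type mice given AAV2/8-TBG-GFP, and cells were taken 3 weeks after injection. In the Mst experiment, all mice carried Mst1 fl/fl, Mst2 fl/fl and ROSA26-lsl-TdTomato. Those that also carried Sox9 fl/fl or Sox9 fl/+ received AAV2/8-TBG-Cre, which removes the Hippo kinases Mst1 and Mst2, and are called Sox9-null Mst and Sox9-heterozygous Mst. Their floxed control received AAV2/8-TBG-GFP, and cells were taken 4 weeks after injection. TBG is a hepatocyte promoter, so the transgenes and Cre acted in hepatocytes of otherwise intact livers. Neither control received Cre, and no group combined activated YAP with 2 intact Sox9 alleles. Per the labels, the sort kept reporter-positive cells (GFP or TdTomato) that lacked Epcam, a bile duct marker, and CD45, a blood cell marker. The series' design text gives GFP for both controls and TdTomato for the Mst mutants, so the sorted reporter and the genotype cannot be told apart in the Mst experiment. Separate mice for the 2 libraries of a group are not stated in the labels. The p-values therefore rest on library-to-library spread that may be technical.

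Hepatocytes take up amino acids from portal blood for protein synthesis, urea and glucose production, and they release others. The Slc38 carriers bring in small neutral amino acids such as alanine and glutamine with sodium, the Slc7 light chains exchange amino acids and mostly need a heavy chain, Slc3a2 or Slc3a1, to reach the membrane, and the Slc43 carriers let large neutral amino acids through by facilitated diffusion. Amino acid supply is sensed through the kinase GCN2 and the transcription factor ATF4, and at the lysosome through mTORC1. YAP acts through TEAD transcription factors, and Sox9 is a transcription factor of bile duct cells that hepatocytes switch on when YAP is active.

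Sox9 was at 2.28 and 2.62 in Sox9-null YAP, 4.41 and 5.28 in Sox9-heterozygous YAP and 3.90 and 3.59 in wild type control libraries. It was at 1.41 and 1.29 in Sox9-null Mst, 6.47 and 6.0 in Sox9-heterozygous Mst and 4.33 and 3.13 in floxed control libraries, so every Sox9-null library was below its control. Stk4, the symbol of Mst1, was at 4.09 to 4.74 in the Mst libraries and 4.82 to 4.89 in the floxed control, and Stk3, the symbol of Mst2, at 3.98 to 4.45 and 3.78 to 4.04. Where the amplicons of Stk4 and Stk3 lie relative to the deleted exons is not known here, so neither Stk4 nor Stk3 checks the deletion. The table itself limits what can be read from it. The means of the wild type and the floxed control were equal to within 0.05 in 98.9% of the 10681 kept genes, so the controls had been set equal before deposit and cannot be compared with each other. In the kept genes, each library's distance from its group mean was a whole multiple of 1 step per gene. Read against an assumed grid of 0.005, this distance had been multiplied by a factor that differs from gene to gene, with a median of 1.58. The size of the factor rests on that grid. The rescaling bears on every p-value, and on the spread and overlap of libraries given below. Linear values summed to 938683 or more in each of the 8 activated libraries and to 920020 or less in each of the 4 control libraries. Hepatocyte markers summed to between 43417 and 77956 CPM in all 12 libraries (6 of 7 markers kept), which matches the labelled cell type. The endothelial markers, 7 of 7 kept, summed to between 81.2 and 228 CPM in Sox9-null YAP, 82.5 and 108 CPM in Sox9-heterozygous YAP and 19.8 and 40.5 CPM in wild type control libraries. They summed to between 249.6 and 250.9 CPM in Sox9-null Mst, 232 and 279.6 CPM in Sox9-heterozygous Mst and 27.9 and 28.0 CPM in floxed control libraries. The macrophage markers, 7 of 7 kept, ran from 50.1 to 74.9 CPM in Sox9-null YAP, 30.9 to 42.6 CPM in Sox9-heterozygous YAP and 14.6 to 55.3 CPM in the wild type control. They ran from 65.1 to 213 CPM in Sox9-null Mst, 33.3 to 80.8 CPM in Sox9-heterozygous Mst and 24.0 to 28.5 CPM in the floxed control. The cholangiocyte markers, 4 of 7 kept, ran from 1234 to 1310 CPM in Sox9-null YAP, 1772 to 2477 CPM in Sox9-heterozygous YAP and 153 to 347 CPM in the wild type control. They ran from 3625 to 3753 CPM in Sox9-null Mst, 3133 to 3245 CPM in Sox9-heterozygous Mst and 218 to 232 CPM in the floxed control. These sums do not stand for every marker. Sox9, the gene deleted by design, is 1 of the 4 kept, so the counts and medians that follow include its deletion. Of the 4 kept, 1 was called higher and 0 lower in Sox9-null YAP (median log2 change 0.93). In Sox9-heterozygous YAP 2 were higher and 0 lower (1.46). In Sox9-null Mst 1 was higher and 1 lower (0.40), and in Sox9-heterozygous Mst 2 and 0 (1.53). Stellate cell markers, 4 of 6 kept, ran from 24.3 to 41.8 CPM in Sox9-null YAP, 18.9 to 39.0 CPM in Sox9-heterozygous YAP and 27.6 to 33.6 CPM in the wild type control. They ran from 51.0 to 69.1 CPM in Sox9-null Mst, 32.0 to 48.7 CPM in Sox9-heterozygous Mst and 27.9 to 32.8 CPM in the floxed control. No marker of T and NK cells, B cells or neutrophils was kept, and the part of other cell types in the changes described here was not tested. In such sorted bulk samples, a different mix of cells and a different level per cell cannot be told apart.

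Only 4 of the 27 kept transporters changed in any comparison with a control, 1 of them in both experiments. Slc38a4, a sodium-coupled carrier of neutral amino acids typical of liver, was higher in both YAP groups. Slc43a2, a carrier of large neutral amino acids, was higher in both Mst groups, and Slc38a2, the carrier best known for rising when amino acids run short, was lower in both. Slc6a8, the creatine transporter, was higher in 3 of the 4 activated groups. A change was called at a Benjamini-Hochberg adjusted p under 0.05 over all kept genes in limma, which was fitted to all 12 libraries. In Sox9-null YAP cells 2 members were higher and 0 lower than in the wild type control, where 6.64% of all kept genes were higher and 0.477% lower. In Sox9-heterozygous YAP cells 1 was higher and 0 lower, against 1.4% and 0.169% of all genes. In Sox9-null Mst cells 2 were higher and 1 lower than in the floxed control, against 6.88% and 0.88% of all genes. In Sox9-heterozygous Mst cells 2 were higher and 1 lower, against 3.45% and 0.796% of all genes. The counts of higher members in the Sox9-null groups are near these background shares, and no count exceeds 2 genes. Where the libraries of a group are said below to lie wholly above or below their controls, the share of all kept genes doing so was not counted. The Sox9-null and Sox9-heterozygous groups of an experiment share their control libraries, so their calls are not independent. The median log2 change of the members was 0.11 in Sox9-null YAP, 0.00 in Sox9-heterozygous YAP, 0.14 in Sox9-null Mst and 0.01 in Sox9-heterozygous Mst, and that of all genes 0.21, 0.07, 0.17 and 0.08 in the same order. With library medians made equal, the medians of all genes became -0.06, -0.02, -0.07 and -0.03, and the share of higher among all called genes went to 80.2% for Sox9-null YAP, against 93.3% in the values as deposited, and to 73.9% for Sox9-null Mst, against 88.7%.

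**Figure D1:**
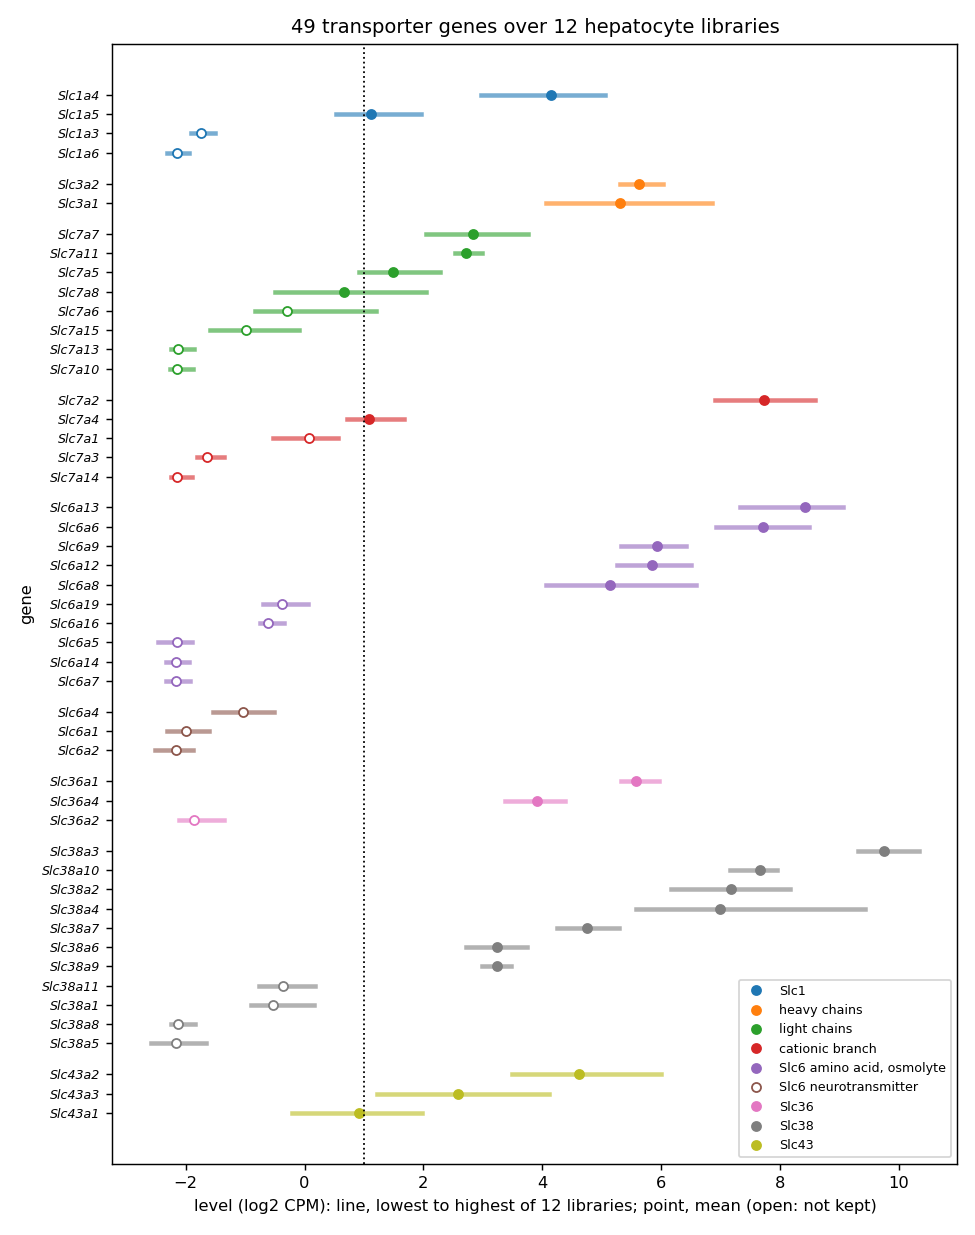
Level (log2 CPM, horizontal axis) of the 49 members, grouped and coloured by family or role, with a line for the range over the 12 libraries, a point for their mean (open where the member was not kept) and a dotted line at log2 1. The widest range among the Slc38 genes is that of Slc38a4, and the 22 open points average no more than 0.08. Levels of different genes also hold the efficiency of their amplicons.

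Slc38a4 held the largest change among the kept members. Its levels were 8.52 and 9.42 in the Sox9-null YAP libraries, 7.88 and 7.22 in the Sox9-heterozygous YAP libraries and 5.82 and 5.94 in the wild type control libraries. All 4 YAP libraries were above both controls, and both Sox9-null libraries were above both Sox9-heterozygous ones. The log2 change from control was 3.10 ± 0.32 (SE, n = 2 libraries per group) in Sox9-null YAP cells, an 8.54-fold higher level (limma adjusted p = 1.94e-05). In Sox9-heterozygous YAP cells it was 1.67 ± 0.32, or 3.18-fold (limma adjusted p = 0.0114). In the Mst experiment the levels were 6.62 and 6.71 in Sox9-null, 6.72 and 7.26 in Sox9-heterozygous and 6.18 and 5.58 in floxed control libraries. The 4 Mst libraries were again all above the 2 controls, but neither change passed the test: 0.79 in Sox9-null cells (limma adjusted p = 0.174) and 1.11 in Sox9-heterozygous cells (limma adjusted p = 0.0658). The change in Sox9-heterozygous Mst cells passed without library 1 of that group (1.38, limma adjusted p = 0.0489), and both passed with deviations as they were before rescaling (0.013 in Sox9-null and 0.00315 in Sox9-heterozygous cells). The change in Sox9-null YAP cells stayed called when any 1 library was left out, at 2.65 to 3.54. The change in Sox9-heterozygous YAP cells lost its call without wild type control library 1 (1.61, limma adjusted p = 0.132) or 2 (1.73, 0.065) and without Sox9-heterozygous YAP library 1 (1.34, 0.149), and also without a filter on low values (0.104).

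Slc38a4, Slc38a2 and Slc38a1 all lie on the minus strand of mouse chromosome 15. In GRCm38 (GENCODE M21), Slc38a4 spans chr15:96994820-97055956 and Slc38a2 spans chr15:96687392-96699730, with 295089 bases between them, while Slc38a2 and Slc38a1 are 44478 bases apart. Slc38a2 and Slc38a4 are thus members of one family on one chromosome, of which Slc38a4 was higher in the YAP experiment and Slc38a2 lower in the Mst experiment. Slc43a2 lies on the plus strand at chr11:75531694-75577575, and Slc6a8 on the plus strand at chrX:73673150-73682502. The 250 bases before a RefSeq start site (GRCm38.p6) are shown for the 3 called genes with a sequence, because these genes carry most of the calls among the members. They were searched on both strands for GGAATG, the core bound by the TEAD partners of YAP, and for TGATGNAA, a form of the amino acid response element bound by ATF4. Capitals mark a match to either.
Slc38a4, chr15:97055957-97056206, minus strand: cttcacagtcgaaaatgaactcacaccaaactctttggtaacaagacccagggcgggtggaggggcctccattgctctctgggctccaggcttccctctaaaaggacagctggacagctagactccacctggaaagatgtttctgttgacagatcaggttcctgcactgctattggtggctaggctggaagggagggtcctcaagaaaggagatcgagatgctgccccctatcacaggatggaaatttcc
Slc38a2, chr15:96699729-96699978, minus strand: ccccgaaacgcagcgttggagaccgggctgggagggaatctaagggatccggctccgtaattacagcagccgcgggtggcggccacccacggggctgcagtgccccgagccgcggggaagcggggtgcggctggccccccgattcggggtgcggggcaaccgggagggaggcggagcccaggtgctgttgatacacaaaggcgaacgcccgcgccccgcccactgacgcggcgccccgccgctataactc
Slc43a2, chr11:75531444-75531693, plus strand: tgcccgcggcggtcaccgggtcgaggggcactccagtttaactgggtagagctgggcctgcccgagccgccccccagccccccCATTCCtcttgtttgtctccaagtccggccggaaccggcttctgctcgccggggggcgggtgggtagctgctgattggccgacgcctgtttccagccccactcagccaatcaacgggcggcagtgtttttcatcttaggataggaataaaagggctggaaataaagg
The Slc43a2 stretch held 1 TEAD core, read on the minus strand, 167 bases before the start site. The Slc38a4 and Slc38a2 stretches held neither motif. Sequence after a start site, introns included, was not searched, so this does not show that a gene lacks either element. The TEAD core was found in 12.6% of 32851 promoter stretches of the same length and in 8 of the 53 that belong to 34 member genes. The response element was found in 3.45% of all stretches and in 3 of the 53. A match is a string of letters and not a bound site, and Slc38a4 and Slc43a2 have further start sites in RefSeq. The stretch before the other Slc43a2 start site held 0 matches, as did those before the other Slc38a4 start sites.

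Slc38a2 was lower in the Mst experiment. Its levels were 6.17 and 6.70 in Sox9-null Mst, 6.49 and 6.22 in Sox9-heterozygous Mst and 7.80 and 7.54 in floxed control libraries. All 4 Mst libraries were below both controls. The log2 change was -1.23 ± 0.28 in Sox9-null cells (0.425 of the control level, limma adjusted p = 0.0125) and -1.31 ± 0.28 in Sox9-heterozygous cells (0.402 of the control level, limma adjusted p = 0.0124). In the YAP experiment the levels were 7.14 and 7.03 in Sox9-null, 7.32 and 8.17 in Sox9-heterozygous and 7.65 and 7.75 in wild type control libraries. The Sox9-null libraries were both below the controls, at -0.61 ± 0.28 (limma adjusted p = 0.228), while the Sox9-heterozygous libraries lay on either side of them, at 0.04 (limma adjusted p = 0.985). The fall in Sox9-heterozygous Mst cells lost its call without floxed control library 1 (-1.18, limma adjusted p = 0.119) or 2 (-1.45, 0.053) and without Sox9-heterozygous Mst library 2 (-1.18, 0.128). The fall in Sox9-null Mst cells lost it without floxed control library 1 (-1.10, limma adjusted p = 0.119) and without Sox9-null Mst library 1 (-0.97, 0.188). Without a filter on low values neither fall passed (limma adjusted p = 0.0545 in Sox9-null and 0.0659 in Sox9-heterozygous Mst cells).

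Of the other Slc38 members, 5 were kept and none passed the test. Slc38a3, the main glutamine, histidine and asparagine carrier of the hepatocyte membrane, had levels of 9.48 and 10.34 in Sox9-null YAP, 10.07 and 9.56 in Sox9-heterozygous YAP and 9.74 and 9.71 in wild type control libraries. It had levels of 9.59 and 9.50 in Sox9-null Mst, 9.31 and 10.10 in Sox9-heterozygous Mst and 10.11 and 9.38 in floxed control libraries. The groups overlapped in both experiments, and the 95% interval of the log2 change was -0.61 to 0.97 in Sox9-null YAP, -0.71 to 0.88 in Sox9-heterozygous YAP, -0.99 to 0.59 in Sox9-null Mst and -0.83 to 0.76 in Sox9-heterozygous Mst cells. A 2-fold change of Slc38a3 in either direction lies just outside these intervals. Slc38a10 had levels of 7.53 and 7.89 in Sox9-null YAP, 7.84 and 7.62 in Sox9-heterozygous YAP and 7.68 and 7.58 in wild type control libraries. Slc38a10 was at 7.81 and 7.94 in Sox9-null Mst, 7.56 and 7.15 in Sox9-heterozygous Mst and 7.50 and 7.77 in floxed control libraries. The Sox9-null Mst libraries of Slc38a10 lay just above the controls and the other groups overlapped theirs. Its changes from control were between -0.27 and 0.24 in the 4 activated groups.

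Slc43a2 was the member with the largest change in the Mst experiment. Its levels were 6.0 and 5.56 in Sox9-null Mst, 5.13 and 5.94 in Sox9-heterozygous Mst and 3.85 and 3.49 in floxed control libraries. All 4 Mst libraries were above both controls, and the 2 Sox9 genotypes overlapped. The log2 change was 2.11 ± 0.34 in Sox9-null cells, or 4.31-fold (limma adjusted p = 0.000884), and 1.86 ± 0.34 in Sox9-heterozygous cells, or 3.62-fold (limma adjusted p = 0.00384). In the YAP experiment the levels were 4.76 and 4.87 in Sox9-null, 3.74 and 4.72 in Sox9-heterozygous and 3.56 and 3.82 in wild type control libraries. The Sox9-null libraries were both above the controls, at 1.13 ± 0.34 (limma adjusted p = 0.0551), and the Sox9-heterozygous group overlapped them, at 0.54 (limma adjusted p = 0.646). The change in Sox9-null Mst cells stayed called when any 1 library was left out, at 1.89 to 2.33. That in Sox9-heterozygous Mst cells lost its call without floxed control library 2 (1.68, limma adjusted p = 0.0536) and without Sox9-heterozygous Mst library 2 (1.45, 0.0751), and Sox9-null YAP cells gained one without either Sox9-heterozygous YAP library (limma adjusted p = 0.026 and 0.0266) or either Sox9-heterozygous Mst library (0.0377 and 0.0384). The other Slc43 members were kept without a call. Slc43a1, also a carrier of large neutral amino acids, changed by -0.98 in Sox9-null YAP and -1.07 in Sox9-null Mst cells, and Slc43a3 by 1.0 and 1.45. Slc43a1 was near the detection filter, at 0.58 and 0.31 in Sox9-null YAP and 0.82 and -0.21 in Sox9-null Mst libraries. The Sox9-null YAP libraries of Slc43a3 stood far apart, at 4.12 and 1.73.

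**Figure D2:**
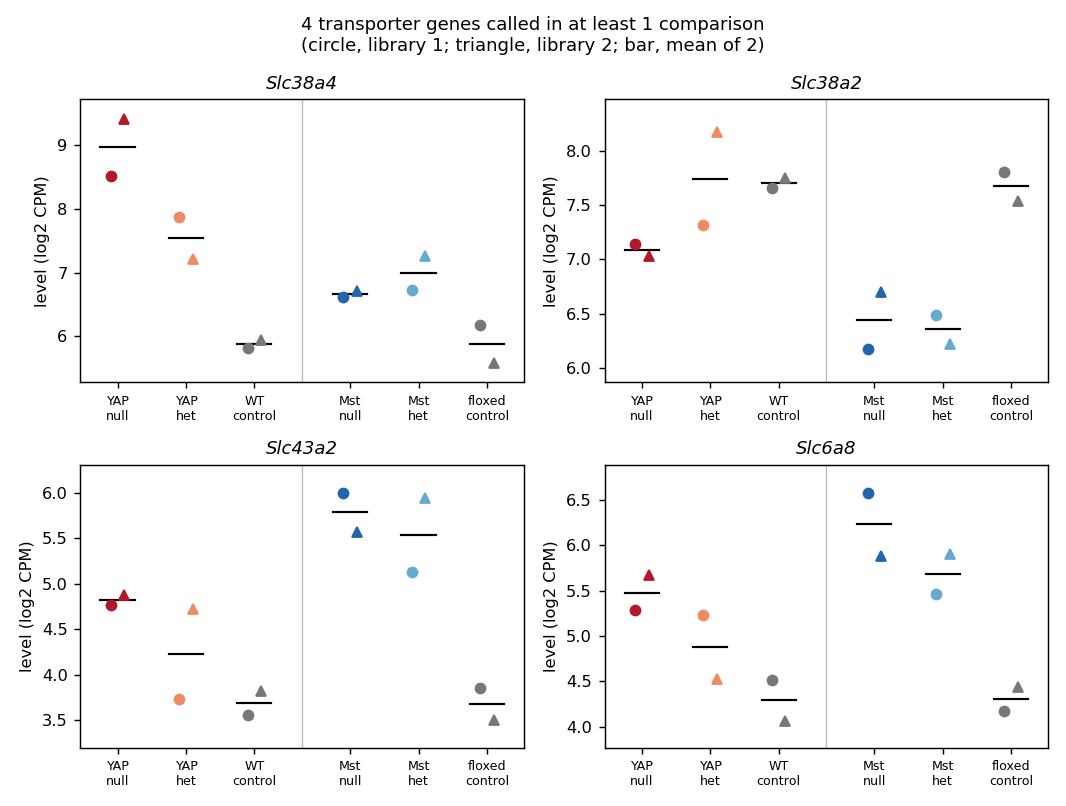
Log2 CPM of the 4 called members, Slc38a4, Slc38a2, Slc43a2 and Slc6a8, in each of the 12 libraries (circle for library 1, triangle for library 2) with group means (bars), by group. The Sox9-null YAP libraries are highest for Slc38a4, at 8.52 and 9.42, and the Mst groups lie above their control for Slc43a2 and Slc6a8 and below it for Slc38a2.

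In the Slc6 family, which couples uptake to sodium and chloride, 5 of 10 amino acid and osmolyte carriers were kept, and 1 of them, Slc6a8, was called. The 3 neurotransmitter carriers were not kept. Slc6a8 levels were 6.58 and 5.88 in Sox9-null Mst, 5.47 and 5.91 in Sox9-heterozygous Mst and 4.17 and 4.44 in floxed control libraries, with every Mst library above both controls. The log2 change was 1.93 ± 0.31 in Sox9-null Mst cells, or 3.81-fold (limma adjusted p = 0.000913), and 1.38 ± 0.31 in Sox9-heterozygous Mst cells, or 2.61-fold (limma adjusted p = 0.0158). In the YAP experiment Slc6a8 was at 5.28 and 5.67 in Sox9-null, 5.23 and 4.52 in Sox9-heterozygous and 4.52 and 4.07 in wild type control libraries. Sox9-null YAP cells were higher than the control by 1.19 ± 0.31, or 2.27-fold (limma adjusted p = 0.03), and Sox9-heterozygous YAP cells differed by 0.59 (limma adjusted p = 0.552), with 1 library level with the higher control. The call in Sox9-null YAP cells was lost without wild type control library 1 (1.41, limma adjusted p = 0.0692) or 2 (0.96, 0.2), without Sox9-null YAP library 1 (1.38, 0.0633) or 2 (0.99, 0.252), and with library medians made equal (0.92, 0.0903). It was also lost with quantile normalization (limma adjusted p = 0.103), with only the YAP experiment in the fit (0.0582), without a trended prior (0.0618) and without a filter on low values (0.109). The call in Sox9-heterozygous Mst cells was lost without floxed control library 1 (1.25, limma adjusted p = 0.13) or 2 (1.52, 0.0631) and without Sox9-heterozygous Mst library 2 (1.17, 0.182). It was also lost with only the Mst experiment in the fit (0.0504) and without a filter on low values (0.0877), while that in Sox9-null Mst cells stayed when any 1 library was left out, at 1.58 to 2.28.

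The other kept Slc6 carriers did not pass the test in any comparison of the deposited values with all libraries. Slc6a6, the taurine transporter, was at 8.35 and 8.05 in Sox9-null Mst, 7.97 and 8.48 in Sox9-heterozygous Mst and 7.60 and 7.39 in floxed control libraries, so that the Mst libraries were all above the controls, by 0.71 and 0.74 on average (limma adjusted p = 0.16 and 0.185). It was at 7.84 and 7.60 in Sox9-null YAP, 7.45 and 6.92 in Sox9-heterozygous YAP and 7.19 and 7.75 in wild type control libraries, which overlapped. Slc6a13, which carries GABA and taurine and is prominent in mouse liver, was at 8.41 and 9.06 in Sox9-null YAP, 8.33 and 8.64 in Sox9-heterozygous YAP and 7.33 and 8.68 in wild type control libraries. Slc6a13 was at 8.45 and 8.70 in Sox9-null Mst, 8.76 and 8.64 in Sox9-heterozygous Mst and 8.07 and 7.92 in floxed control libraries. All 4 Mst libraries of Slc6a13 were above the floxed control, while the YAP groups overlapped a wild type control whose deposited libraries stood far apart. The rescaling factor of Slc6a13 was 3.08, so that distance and the overlap also hold the rescaling. With deviations as they were before rescaling, Slc6a13 passed in Sox9-null YAP cells (limma adjusted p = 0.00452) and not in Sox9-heterozygous YAP cells (0.0609). Its change in Sox9-null YAP cells was 0.73 with all libraries (limma adjusted p = 0.265) and 1.41 without wild type control library 2 (0.0303). Slc6a9, a glycine carrier, was at 5.96 and 6.25 in Sox9-null YAP, 6.03 and 5.33 in Sox9-heterozygous YAP and 6.16 and 5.58 in wild type control libraries. In Sox9-null Mst libraries Slc6a9 was at 6.35 and 5.71, in Sox9-heterozygous Mst at 5.67 and 6.42 and in the floxed control at 5.95 and 5.83. The spread within groups of Slc6a9 was as large as the distances between them. Slc6a12, a betaine and GABA carrier, was at 5.41 and 6.18 in Sox9-null YAP, 5.83 and 5.39 in Sox9-heterozygous YAP and 5.26 and 6.50 in wild type control libraries. In Sox9-null Mst libraries Slc6a12 was at 5.48 and 6.28, in Sox9-heterozygous Mst at 6.38 and 5.64 and in the floxed control at 5.88 and 5.85. Every activated group overlapped its control for both Slc6a9 and Slc6a12, and the 4 changes from control lay between -0.27 and 0.23.

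The heavy chains and their partners gave no call. Slc3a2, the heavy chain of most Slc7 exchangers, was at 6.03 and 5.68 in Sox9-null YAP, 5.63 and 5.42 in Sox9-heterozygous YAP and 5.64 and 5.57 in wild type control libraries. Slc3a2 was at 5.86 and 5.38 in Sox9-null Mst, 5.30 and 5.68 in Sox9-heterozygous Mst and 5.56 and 5.66 in floxed control libraries. The Sox9-null YAP libraries of Slc3a2 were both above the controls, and the other groups overlapped theirs. Its 95% intervals reached no further than -0.63 and 0.77 in the 4 activated groups. Slc3a1, the heavy chain that works with Slc7a9, was below the control mean in all 4 activated groups. It was at 4.24 and 4.72 in Sox9-null Mst, 4.65 and 5.10 in Sox9-heterozygous Mst and 6.59 and 5.66 in floxed control libraries, without overlap between mutants and control. It was at 5.59 and 4.76 in Sox9-null YAP, 4.06 and 5.89 in Sox9-heterozygous YAP and 5.47 and 6.85 in wild type control libraries, with overlap. The log2 change of Slc3a1 was -0.99 in Sox9-null YAP, -1.19 in Sox9-heterozygous YAP, -1.64 in Sox9-null Mst and -1.25 in Sox9-heterozygous Mst cells (limma adjusted p = 0.309, 0.432, 0.0715 and 0.244). Slc3a1 in Sox9-null Mst cells passed the test when either Sox9-heterozygous YAP library was left out (limma adjusted p = 0.031 and 0.0313) or when the Mst experiment was fitted alone (0.0376).

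Of 8 light chains measured, 4 were kept, and of 5 cationic amino acid carriers 2 were. Slc7a5, the leucine-preferring light chain that many growing cells raise, was near the detection filter, at 1.10 and 1.47 in Sox9-null YAP, 1.81 and 0.92 in Sox9-heterozygous YAP and 2.29 and 1.50 in wild type control libraries. In Sox9-null Mst libraries Slc7a5 was at 1.32 and 1.24, in Sox9-heterozygous Mst at 0.97 and 1.47 and in the floxed control at 2.09 and 1.66. The Sox9-null YAP libraries and all 4 Mst libraries of Slc7a5 were below both their controls, and the Sox9-heterozygous YAP group overlapped them. Its log2 change was between -0.65 and -0.53 in the 4 activated groups, with limma adjusted p of 0.471 to 0.76. Slc7a11, the cystine and glutamate exchanger, was listed at 2.69 in all 6 libraries of the YAP experiment, which is no measurement of replicate spread. Slc7a11 was at 2.99 and 2.63 in Sox9-null Mst, 2.75 and 2.75 in Sox9-heterozygous Mst and 2.52 and 2.85 in floxed control libraries, which overlapped. Slc7a2, a carrier of arginine and other cationic amino acids in liver, was at 7.36 and 7.54 in Sox9-null YAP, 7.03 and 8.42 in Sox9-heterozygous YAP and 7.84 and 8.59 in wild type control libraries. Slc7a2 was at 7.24 and 7.91 in Sox9-null Mst, 7.52 and 6.90 in Sox9-heterozygous Mst and 8.23 and 8.15 in floxed control libraries, and every Mst library was below both controls, as were the Sox9-null YAP libraries. Its log2 changes were -0.77, -0.49, -0.62 and -0.98 in Sox9-null YAP, Sox9-heterozygous YAP, Sox9-null Mst and Sox9-heterozygous Mst cells (limma adjusted p = 0.284, 0.752, 0.436 and 0.214).

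Slc36a1, a proton-coupled carrier of small amino acids, was at 5.60 and 5.89 in Sox9-null YAP, 5.97 and 5.34 in Sox9-heterozygous YAP and 5.31 and 5.72 in wild type control libraries. Slc36a1 was at 5.75 and 5.35 in Sox9-null Mst, 5.38 and 5.43 in Sox9-heterozygous Mst and 5.36 and 5.72 in floxed control libraries, and the groups overlapped. The remaining 11 kept members, among them the neutral amino acid exchangers Slc1a4 and Slc1a5, had log2 changes of -0.98 to 1.0 in Sox9-null YAP, -0.76 to 0.50 in Sox9-heterozygous YAP, -1.07 to 1.45 in Sox9-null Mst and -0.78 to 1.09 in Sox9-heterozygous Mst cells. The lowest limma adjusted p among these 11 was 0.267, 0.606, 0.198 and 0.129 in the same order, and that of 0.129 belonged to Slc7a7, the light chain that releases cationic amino acids, in Sox9-heterozygous Mst cells.

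**Figure D3:**
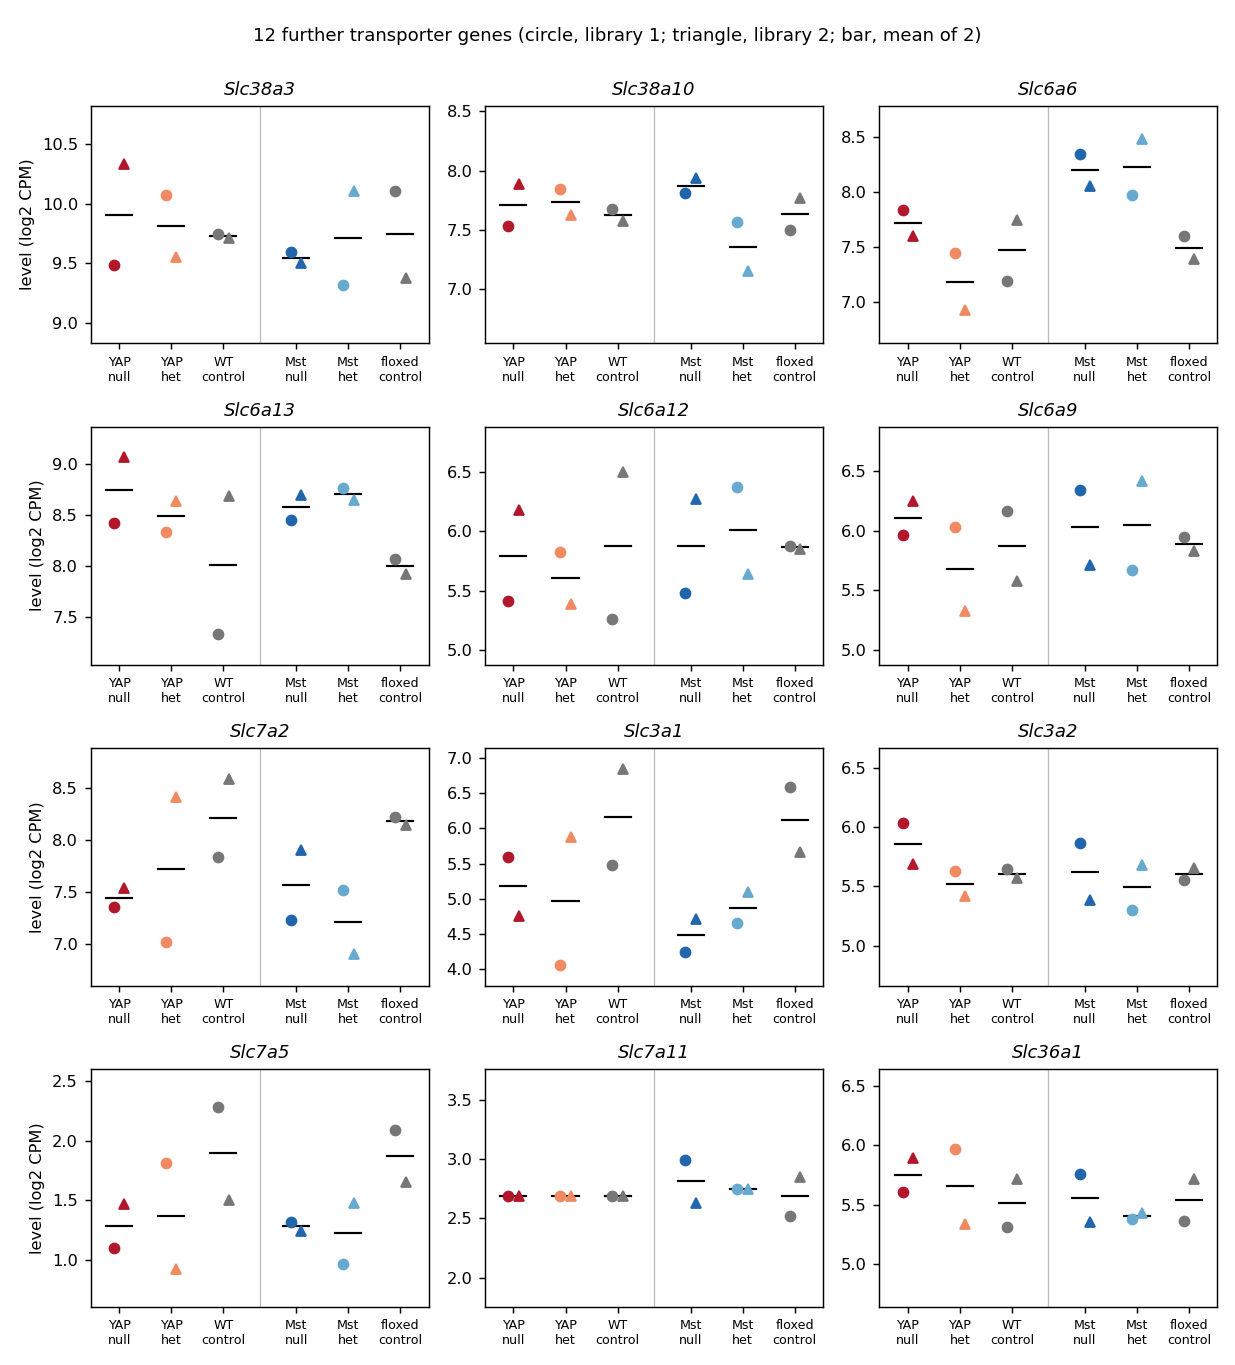
Log2 CPM of the 12 other named members in each of the 12 libraries (points) with group means (bars), by group. All 4 Mst libraries lie below the floxed control for Slc3a1, Slc7a2 and Slc7a5 and above it for Slc6a6 and Slc6a13. No change of these genes passed the test with all libraries and the deposited values. The share of all kept genes that separate in this way was not counted.

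**Figure D4:**
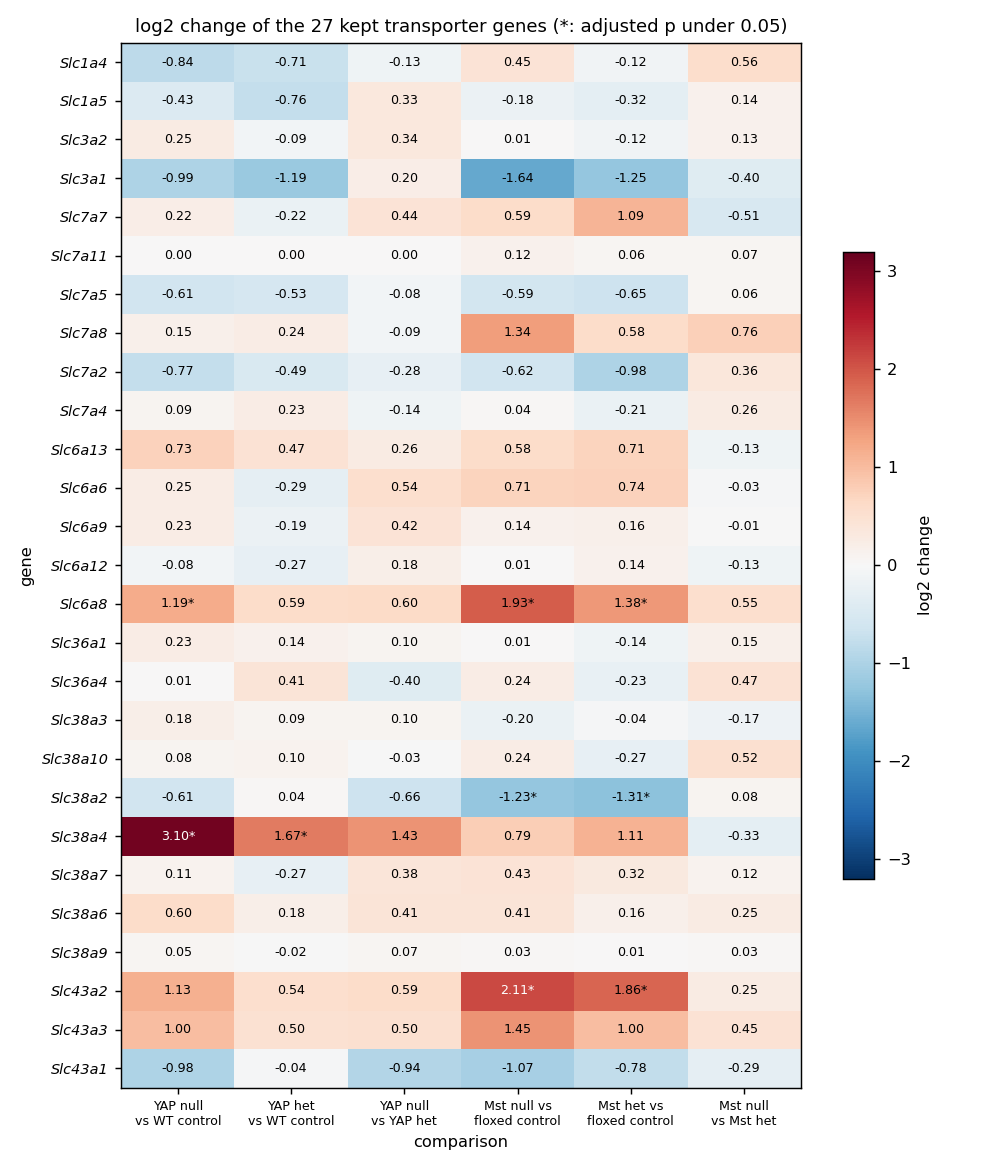
Log2 change (colour and number) of the 27 kept members in each activated group against the control of its experiment and in Sox9-null against Sox9-heterozygous cells, with an asterisk at an adjusted p under 0.05. The darkest red cells are Slc38a4 in the Sox9-null YAP group, at 3.10, and Slc43a2 in the Sox9-null Mst group, at 2.11.

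The study's title asks about the role of Sox9, which the Sox9-null against Sox9-heterozygous comparisons address. No transporter passed the limma test of Sox9 loss. In the YAP experiment 0 of 27 were called, with 2 at an unadjusted p under 0.05 and 0.169% of all kept genes called. In the Mst experiment 0 were called, with 1 at an unadjusted p under 0.05 and 0.0468% of all genes called. Over both experiments 0 were called, with 2 at an unadjusted p under 0.05 and 0.131% of all genes called. Slc38a4 differed by 1.43 between Sox9-null YAP and Sox9-heterozygous YAP cells (limma adjusted p = 0.15), and this passed without Sox9-heterozygous YAP library 1 (1.76, 0.039) and with deviations as they were before rescaling (1.43, 0.00486). Over both experiments the Slc38a4 difference was 0.55 ± 0.23 (limma adjusted p = 0.467). The difference between experiments in the effect of Sox9 loss, Mst minus YAP, was -1.75 ± 0.45 for Slc38a4 (limma adjusted p = 0.796), in a test that called 0% of all genes, 0 members, and 2 members at an unadjusted p under 0.05.

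Whether the 2 ways of activating YAP differed was tested as the change in the Mst experiment minus that in the YAP experiment. Because the control means are equal in the table, this is close to the difference between the activated groups, and the experiments also differ in time after injection and in the sorted reporter. Between the Sox9-heterozygous groups, 0 members were called in limma, 4 had an unadjusted p under 0.05, and 0.197% of all genes were called. In that test Slc43a2 stood at 1.32 ± 0.48 (limma adjusted p = 0.477), Slc38a2 at -1.36 ± 0.40 (0.301), Slc6a8 at 0.80 (0.712) and Slc38a4 at -0.56 (0.848). Between the Sox9-null groups, a comparison added after the values were seen, 1 member was called and 0.272% of all genes were. It was Slc38a4, whose change was smaller in Mst than in YAP cells by a log2 difference of -2.31 ± 0.45 (limma adjusted p = 0.0462). This call was lost when any 1 of 6 libraries was left out: Sox9-null YAP library 2 (-1.86, limma adjusted p = 0.204), Sox9-null Mst library 1 (-2.26, 0.136) or 2 (-2.35, 0.073), wild type control library 1 (-2.24, 0.23) or 2 (-2.37, 0.14), and floxed control library 1 (-2.01, 0.238). It was also lost without a filter on low values (0.316) and without a trended prior (0.166). For Slc38a2, Slc43a2 and Slc6a8 no difference between the experiments passed, so a call in one experiment and none in the other does not show that they differ.

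**Figure D5:**
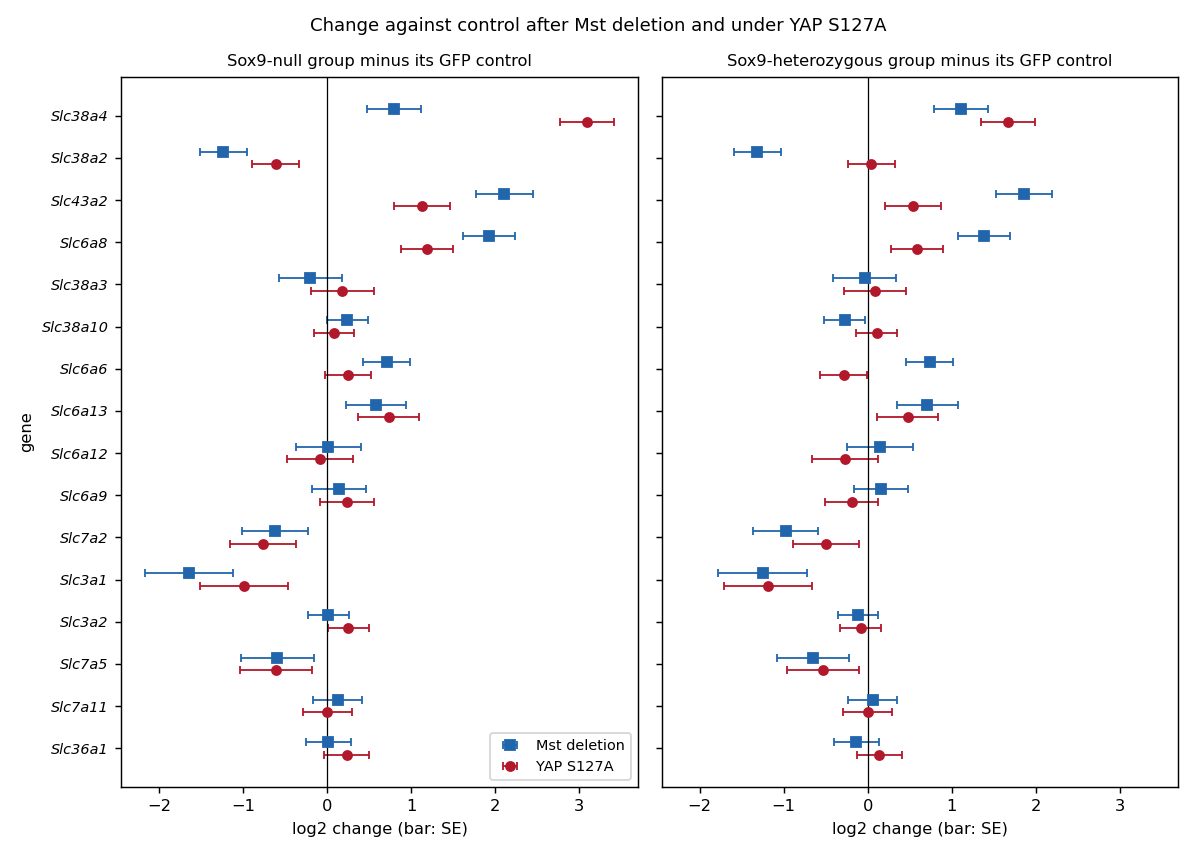
Log2 change (horizontal axis, bars for SE) of the 16 named members against the control of the experiment, for Mst deletion (squares) and YAP S127A (circles), with Sox9-null groups on the left and Sox9-heterozygous groups on the right. Slc38a4 is at 0.79 for Mst deletion and 3.10 for YAP S127A in the Sox9-null groups, and Slc43a2 at 2.11 and 1.13.

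Genes that sense or answer amino acid supply were followed beside the transporters. Unlike the named transporters, the genes of this and the following paragraphs were not followed through the alternative fits. How far their calls depend on the processing or on single libraries was not tested. The medians of their lists are to be read against those of all genes, 0.21 in Sox9-null YAP, 0.07 in Sox9-heterozygous YAP, 0.17 in Sox9-null Mst and 0.08 in Sox9-heterozygous Mst cells. Of 28 genes of the amino acid response, which ATF4 governs in part, 26 were kept. In Sox9-null YAP cells 3 were higher, 1 was lower and the median was -0.06, where 6.64% of all kept genes were higher and 0.477% lower. Psat1, an enzyme of serine synthesis, was higher by 2.14 (limma adjusted p = 0.00483), the hormone gene Fgf21 by 2.44 (0.0162) and the lipoprotein receptor gene Vldlr by 1.84 (0.0335), and Gdf15, a stress-induced hormone gene, was lower by a log2 change of -1.84 (0.0215). In Sox9-heterozygous YAP cells 0 were called in limma, against 1.4% higher and 0.169% lower of all genes, and the median was -0.12. In Sox9-null Mst cells 2 were higher and 0 lower, against 6.88% and 0.88% of all genes, with a median of 0.28: Gdf15 at 2.22 (limma adjusted p = 0.00585) and Eif2ak3, the kinase PERK of the unfolded protein response, at 1.15 (0.0202). In Sox9-heterozygous Mst cells 1 was higher and 1 lower, against 3.45% and 0.796% of all genes, with a median of 0.22: Gdf15 at 1.72 (limma adjusted p = 0.0434) and Chac1, which breaks down glutathione, at -1.97 (0.0101). Gdf15 thus changed in opposite directions, and the difference between the Sox9-null groups, in the comparison added after the values were seen, was 4.05 (limma adjusted p = 0.0115).

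Among genes of lysosomal amino acid sensing by mTORC1, 21 of 26 were kept, and Rragd, which encodes a Rag GTPase that binds mTORC1 at the lysosome, was higher in all 4 activated groups. Its log2 change was 2.98 in Sox9-null YAP, 1.70 in Sox9-heterozygous YAP, 3.58 in Sox9-null Mst and 2.13 in Sox9-heterozygous Mst cells (limma adjusted p = 2.28e-05, 0.00865, 2.62e-06 and 0.000617). It was also the 1 gene of this list called for Sox9 loss over both experiments, 1.36 ± 0.22 higher in Sox9-null than in Sox9-heterozygous cells (limma adjusted p = 0.0179). The only other call in the list was Fnip2, part of a complex that regulates the Rag GTPases, at 1.06 in Sox9-null YAP cells (limma adjusted p = 0.0369). Of all genes, 6.64% were higher in Sox9-null YAP and 1.4% in Sox9-heterozygous YAP cells. In Sox9-null Mst and Sox9-heterozygous Mst cells 6.88% and 3.45% were higher, and 0.131% were called for Sox9 loss over both experiments. The median of the list was 0.26 in Sox9-null YAP, 0.07 in Sox9-heterozygous YAP, 0.16 in Sox9-null Mst and 0.17 in Sox9-heterozygous Mst cells.

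Of 17 genes of glutathione and antioxidant defence, 14 were kept, and glutathione itself draws on cysteine and glutamate supply. Nqo1, Srxn1 and Nfe2l2 below are antioxidant genes and not enzymes of glutathione synthesis. In Sox9-null Mst cells 5 were higher and 0 lower, against 6.88% and 0.88% of all genes, and the median was 0.73, against 0.17 for all genes. They were Nqo1 (1.71, limma adjusted p = 0.0059), Nfe2l2, the gene of the antioxidant regulator NRF2 (1.46, 0.00348), Srxn1 (1.44, 0.0362), Gss, the glutathione synthetase gene (1.09, 0.023), and Ggt6 (1.0, 0.0214). In Sox9-heterozygous Mst cells 1 was higher, Nfe2l2 (1.50, limma adjusted p = 0.00446), against 3.45% of all genes, and the median was 0.30. In Sox9-null and Sox9-heterozygous YAP cells 0 were called in limma, with medians of 0.33 and -0.04. Of all genes, 6.64% and 1.4% were higher and 0.477% and 0.169% lower there. Slc7a11, which brings in cystine for glutathione, was not among the called genes. Of 18 further amino acid transporters outside the 7 families, 9 were kept, and 1 call was made. Slc16a10, a carrier of aromatic amino acids, was lower in Sox9-null Mst cells by a log2 change of -1.28 (limma adjusted p = 0.0397). In those cells 0.88% of all genes were lower, and the median of this list was -0.19, against 0.17 for all genes. Glul, the glutamine synthetase gene, chosen after its values were seen, was lower in Sox9-null YAP (-2.51), Sox9-null Mst (-3.05) and Sox9-heterozygous Mst cells (-2.34), with limma adjusted p between 1.85e-05 and 0.000355. In those groups Slc38a3, a glutamine carrier, had changes of 0.18, -0.20 and -0.04.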

How the data were processed

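Per the labels' protocols, messenger RNA was read with an AmpliSeq panel for mouse (1 amplicon for each gene) on an Ion S5 Plus, so levels of different genes also hold amplicon efficiency. The authors deposited log2 CPM. Aligner, build and later adjustment were not given in the sources used here. Whole reads could not be recovered, so the depth behind a value is unknown.

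Group means were fitted with limma 3.58.1 in R 4.3.3 (trended prior variance) over 12 libraries and the 10681 genes that reached log2 1 in 2 libraries or more, with Benjamini-Hochberg adjustment, two-sided, after a test on simulated data. Intervals are at 95% with 15.42 degrees of freedom. Deviations within groups were whole multiples of 1 step per gene, to a tolerance of 2e-06, in all 10681 kept genes. The factor of a gene was its step divided by 0.005, an assumed grid of the values before rescaling. Dividing by this factor lowered the median SD within groups to 0.187, against 0.288 as deposited. The first and second Mst libraries had equal means too, to a median of 0.0051. The main fit held no term for this, so its p-values and intervals may rest on too small a spread. Named with every library were members called in a comparison, members averaging log2 of at least 5, and Slc7a11, Slc7a5, Slc3a2 and Slc38a2, 16 in all. Members and lists were chosen with earlier results of these data known. Alternatives (filter, normalization, pseudocount, prior, replicate block, fit within 1 experiment, 1 library left out, deviations before rescaling) are in the closing section. Promoters are from RefSeq (GRCm38.p6) and positions from GENCODE M21 (GRCm38), matched by symbol.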

Additional observations from a re-analysis of the deposited data

Results flagged for a closer look

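The change of Slc38a4 on activation in Sox9-null cells differed between the experiments: Mst minus YAP was -2.31 on the log2 scale (SE 0.45, limma adjusted p = 0.0462, n = 2 libraries per group). Levels were 6.62 and 6.71 in Sox9-null Mst and 8.52 and 9.42 in Sox9-null YAP libraries, with control means that the table holds equal. The difference was tested, in a comparison added after the values were seen. It was lost in 6 of the 12 fits that leave out 1 library, and without the trended prior (limma adjusted p = 0.166). Each of these 6 left out a Sox9-null or control library. Sox9-heterozygous libraries enter the difference only through the shared spread, so leaving them out could not change its size. The experiments differ in genotype, transgene, sorted reporter and time after injection, which cannot be told apart.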

How the results depend on the processing

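Of 199 alternative fits of the 10 called member changes, 164 kept the direction and the call, 35 kept the direction and lost the call, and 0 reversed. Many of these fits leave out a library of a group outside the comparison. There the change itself cannot move and only the shared spread does, so the 164 overstates how firmly the calls were tested. Among the 150 uncalled changes of named members, 87 had a different sign in some alternative. These include the changes of Slc7a11 within the YAP experiment, which were 0 as deposited, so that any move off 0 was counted.

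Members called in Sox9-null YAP cells numbered 2, and 1 without a filter on low values, with library medians made equal, with quantile normalization, with only 1 experiment in the fit or without a trended prior. In Sox9-heterozygous YAP cells the 1 became 0 without a filter, in Sox9-heterozygous Mst cells the 3 became 1, in Sox9-null Mst cells the 3 became 2, and the 1 for the Sox9-null difference between experiments became 0 both without a filter and without a trended prior. Leaving out 1 library gave 1 to 3 in Sox9-null YAP, 0 to 1 in Sox9-heterozygous YAP, 2 to 4 in Sox9-null Mst and 0 to 4 in Sox9-heterozygous Mst cells, and 0 to 1 for Sox9-null against Sox9-heterozygous YAP and for the Sox9-null difference between experiments. The cause was not tested.

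With deviations as they were before rescaling, an alternative chosen after seeing the data, 9 members were called in Sox9-null YAP, 2 in Sox9-heterozygous YAP, 11 in Sox9-null Mst and 10 in Sox9-heterozygous Mst cells, with 2 for Sox9 loss in the YAP experiment, 1 over both experiments, 3 for the Sox9-heterozygous and 1 for the Sox9 loss difference between experiments. Over all genes the calls were then 2938, 1223, 2817 and 2108 in the 4 activated groups, against 760, 168, 829 and 454 as deposited, and 466 and 181 for Sox9 loss, against 18 and 5. These counts depend on how the spread was handled before deposit and on the assumed grid of 0.005.

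With the replicate block, members called were 3 in Sox9-null YAP, 1 in Sox9-heterozygous YAP, 4 in Sox9-null Mst and 3 in Sox9-heterozygous Mst cells. Slc43a2 in Sox9-null YAP (limma adjusted p = 0.0485) and Slc3a1 in Sox9-null Mst cells (0.0133) were added under the block, and no call was lost. Deviations of same-numbered libraries correlated at -0.117 to -0.0627 in the YAP experiment and -0.644 to -0.315 in the Mst experiment. In the YAP experiment the numbers are thus not shown to pair the samples. In the Mst experiment the table gives the first and second libraries equal means, which by itself makes these correlations negative, so the pairing cannot be checked there.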
